A study of Mus musculus with 14 samples.

Results

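The 8 genes described here encode guidance molecules: the ligands Slit2 and Slit3, their receptors Robo1 and Robo2, the class 3 semaphorins Sema3a and Sema3c, and the semaphorin co-receptors Nrp1 and Nrp2. They were given as a list of symbols and matched to Ensembl gene IDs, and all 8 were found among the 47729 mouse genes of the count table. They were chosen by symbol, with the differences between groups in an earlier analysis of these same counts known, so the levels of the 8 genes and their changes between groups are a description and carry no test. RNA had been sequenced from 14 small pools of synovial cells, the cells of the joint lining, sorted from knees of C57BL6 mice aged 16 weeks. In antigen-induced arthritis, mice are immunized against methylated bovine serum albumin, given with complete Freund's adjuvant, and later receive the same protein in the joint, and here the knees followed 10 days later.

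The CD105+ arthritic group held 5 libraries of CD200-CD105+ cells from mice with this arthritis. The CD200+ arthritic group held 5 libraries of CD200+CD105- cells, also from mice with arthritis. The CD200+ non-immunized group held 4 libraries of CD200+CD105- cells from mice given phosphate buffered saline at every step. Cells of every group had been selected as CD51+ and as negative for CD31, CD45 and TER119, the surface markers of endothelium, leukocytes and red cell precursors. A library came from 200 to 500 cells lysed directly, with ERCC spike-in RNA added. CD200-CD105+ cells of non-immunized mice were not analysed here, so population and disease can be compared only within the 3 groups. The labels do not say whether the libraries came from separate mice or whether the arthritic populations came from the same mice. A p-value therefore sets a group difference against the spread between these libraries, which need not be a spread between mice.

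Slit proteins are secreted ligands of Robo receptors, and class 3 semaphorins are secreted ligands that bind complexes of a neuropilin and a plexin. Both systems steer growing axons and migrating cells by remodelling the actin cytoskeleton, and neuropilins also bind members of the vascular endothelial growth factor (VEGF) family. In bone, Sema3a, Slit3 and neuropilin 1 are known to act in signalling among osteoblasts, osteoclasts, vessels and nerves.

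The promoter sequences of Slit2, Nrp2 and Nrp1 are shown for the 2 members whose libraries separated groups without overlap, Slit2 and Nrp2, and for Nrp1, the close relative of Nrp2, whose groups overlapped. The share of all genes tested that separate these groups is not given here, so this choice serves display only. RefSeq promoter windows (GRCm38.p6) were found for all 8 genes, 10 windows in all. Each sequence below is read from the + strand. The Slit2 and Nrp2 stretches end just before the first exon base annotated by GENCODE, and the Nrp1 stretch, which ends at the RefSeq start, lies inside the GENCODE span of the gene but outside its exons. Capitals mark a GC box (GGGCGG) on either strand or a TATA box (TATAAA). The Slit2 stretch is chr5:47982905-47983137, the Nrp2 stretch chr1:62703067-62703284 and the Nrp1 stretch chr8:128358823-128359072.
Slit2: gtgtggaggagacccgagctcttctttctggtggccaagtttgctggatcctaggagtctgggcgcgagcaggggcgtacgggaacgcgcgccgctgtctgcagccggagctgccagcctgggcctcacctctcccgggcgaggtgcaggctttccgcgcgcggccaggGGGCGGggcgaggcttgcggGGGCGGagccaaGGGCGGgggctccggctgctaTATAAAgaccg
Nrp2: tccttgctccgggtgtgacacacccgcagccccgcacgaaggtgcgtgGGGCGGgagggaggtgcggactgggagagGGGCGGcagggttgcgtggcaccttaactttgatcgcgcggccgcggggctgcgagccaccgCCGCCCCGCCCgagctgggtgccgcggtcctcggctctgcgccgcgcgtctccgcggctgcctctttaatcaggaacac
Nrp1: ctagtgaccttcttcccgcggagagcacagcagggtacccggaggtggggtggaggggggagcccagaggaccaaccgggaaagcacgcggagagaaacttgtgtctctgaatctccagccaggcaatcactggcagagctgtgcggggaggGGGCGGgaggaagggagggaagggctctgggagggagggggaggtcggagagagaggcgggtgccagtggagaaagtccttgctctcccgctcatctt
The 250 bases before the Slit2 start held 3 GC boxes and 1 TATA box, those of Nrp2 held 5 GC boxes, 4 of them in the part shown with a pair that overlaps, and those of Nrp1 held 1. Over all 32851 RefSeq windows of this length, counting both strands, 32.7% held a GC box and 12.4% a TATA box. The RUNX letters TGTGGT, in 14% of windows, and the AP-1 letters TGANTCA, in 6.75%, were found in neither the Slit2, the Nrp2 nor the Nrp1 window. CpG pairs numbered 25 before Slit2, 32 before Nrp2 and 11 before Nrp1, against a median of 6 over all windows. The files hold no measurement at these promoters, and a letter match is a description only.

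Counts on mouse genes ranged from 2919666 to 18553803 per library, so that 3 counts equalled 0.17 to 0.91 CPM (counts scaled to a library of 1000000, with TMM factors). Spike-ins took 20.29% to 91.98% of the counts and exceeded 80% in CD200+ arthritic libraries 5 and 6 and CD200+ non-immunized library 2. Cd200, the gene of the sorted marker, averaged 2.29 ± 5.12 CPM in CD105+ arthritic, 418 ± 98.4 CPM in CD200+ arthritic and 590 ± 177 CPM in CD200+ non-immunized libraries (SD, n = 5, 5 and 4). Eng, which encodes CD105, averaged 6.60 ± 4.85 CPM in CD105+ arthritic, 0.502 ± 0.582 CPM in CD200+ arthritic and 5.27 ± 5.69 CPM in CD200+ non-immunized libraries, and so did not separate the CD105+ libraries from all CD200+ libraries. Itgav, which encodes CD51, averaged 7.41 ± 9.53 CPM in CD105+ arthritic, 35.8 ± 58.7 CPM in CD200+ arthritic and 32.2 ± 34.0 CPM in CD200+ non-immunized libraries. Ptprc, which encodes the gated-out CD45, averaged 6.86 ± 6.70 CPM in CD105+ arthritic libraries, where 4 of 5 had counts, 0.015 ± 0.0336 CPM in CD200+ arthritic and 4.89 ± 9.78 CPM in CD200+ non-immunized libraries. Pecam1, which encodes CD31, averaged 0.334 to 1.49 CPM in the 3 groups. Cell type markers differed widely between the populations. The 7 erythroid markers summed to 16068 to 138580 CPM in CD105+ arthritic libraries, with all 7 detected. They summed to 2.42 to 5494 CPM in CD200+ arthritic libraries, with Klf1, Slc4a1 and Epor at 0 counts, and to 647 to 5426 CPM in CD200+ non-immunized libraries. The 6 osteoblast markers summed to 1.05 to 39.1 CPM in CD105+ arthritic libraries, with Runx2 at 0, to 95.8 to 5602 CPM in CD200+ arthritic and to 7724 to 14605 CPM in CD200+ non-immunized libraries. The 7 stromal markers were detected in every group, with sums of 1401 to 4522 CPM in CD105+ arthritic, 2776 to 14179 CPM in CD200+ arthritic and 9103 to 23415 CPM in CD200+ non-immunized libraries. Library 5 stood apart from the other CD200+ libraries by its low osteoblast sum. Among CD105+ libraries, library 11 stood apart by macrophage markers of 5548 CPM and library 12 by chondrocyte markers of 5168.5 CPM. Chondrocyte markers summed to 16.175 to 23.969 CPM in the other CD105+ libraries. They summed to 119 to 4392 CPM in CD200+ arthritic and 416 to 16752 CPM in CD200+ non-immunized libraries. Library 12 was also the only CD105+ library with Cd200 counts, at 11.4 CPM. The part of chondrocyte marker content in its values was not tested. Differences that rest on library 5 or library 11 are given with and without that library.

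**Figure D1:**
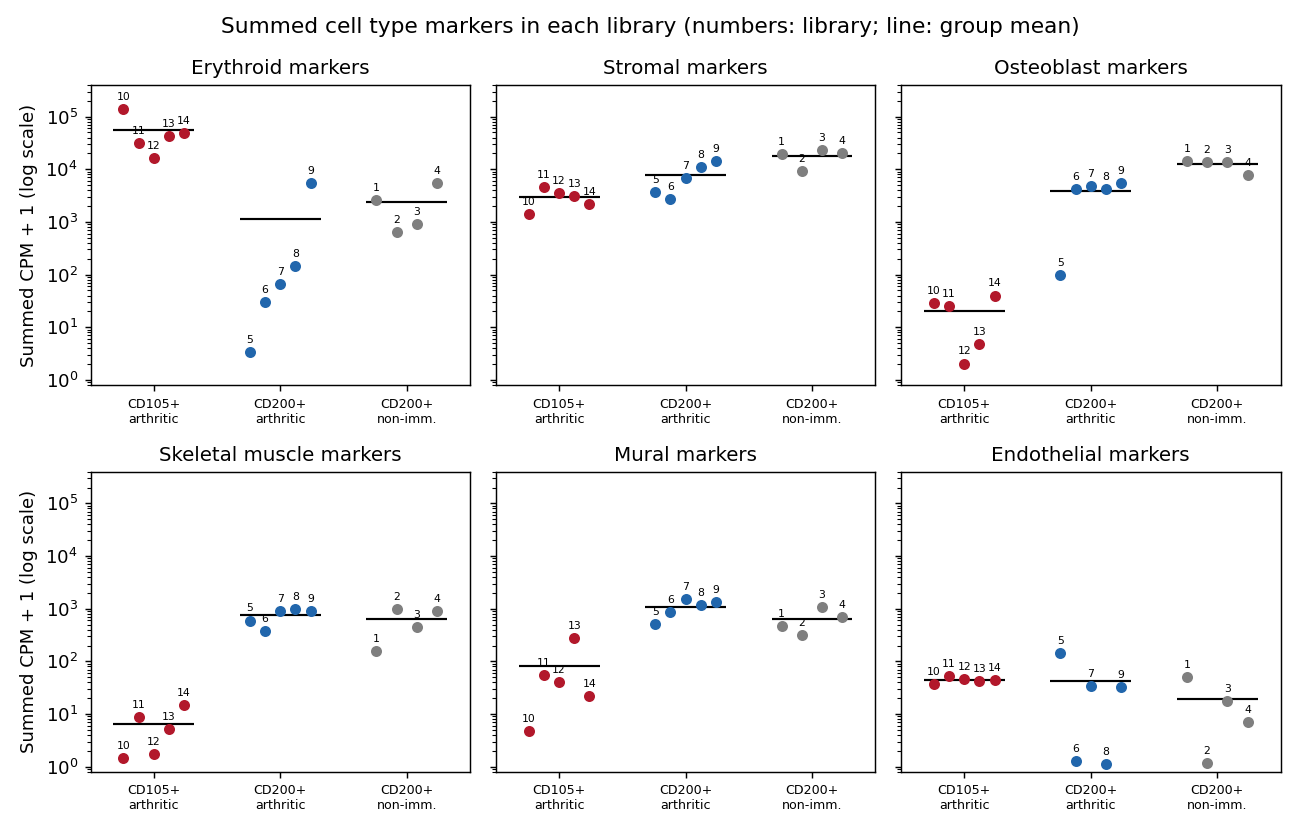
Summed CPM + 1 of 6 marker lists on a log scale for each library, by group (points, numbered by library; line, group mean). Erythroid sums were highest in the 5 CD105+ libraries, osteoblast and skeletal muscle sums were lowest there, and library 5 had an osteoblast sum of 95.8 CPM, below every other CD200+ library.

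All 8 genes had counts, passed the low-count filter and were among the 15015 genes tested by edgeR's quasi-likelihood test. With CD105+ arthritic against CD200+ arthritic cells, the fitted log2 difference was negative for 8 of 8 members and its median was -2.50, against -0.05 over all genes tested. With CD105+ arthritic against CD200+ non-immunized cells it was again negative for 8 of 8, with a median of -3.94 against -0.24 over all genes. With CD200+ arthritic against CD200+ non-immunized cells it was negative for 6 of 8, with a median of -1.50 against -0.10. These 3 comparisons share libraries in pairs, so their values are not independent of each other. At an adjusted p under 0.05, 1 member was called in CD105+ arthritic against CD200+ arthritic cells, where 11.3% of all genes tested were called, 4.79% as higher and 6.48% as lower. Against CD200+ non-immunized cells 1 member was called, where the shares were 13.2%, 5.57% and 7.63%. That member was Slit2 in both. Between the CD200+ groups 0 members were called, and 0 of 15015 genes were (0%) by edgeR, while 915 genes had an unadjusted p under 0.05 and DESeq2 called 303. The members were chosen with these comparisons known, and nothing is read from their counts. In pooled cells, fewer expressing cells and less RNA per cell cannot be told apart, which holds for every value below.

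**Figure D2:**
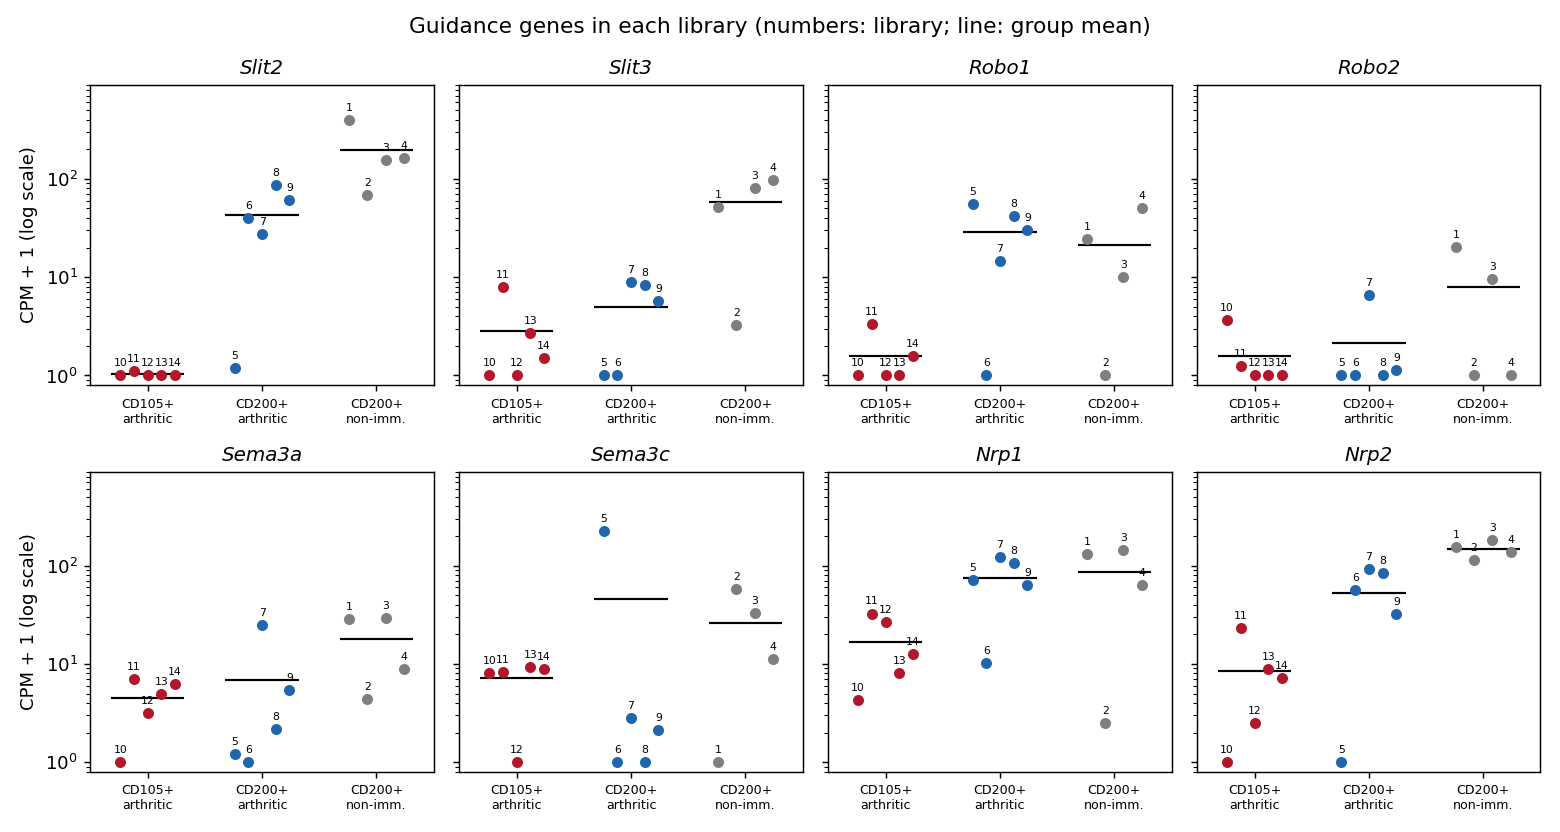
CPM + 1 on a log scale for each of the 8 genes, one panel per gene (points, numbered by library; line, group mean). Slit2 had 2 counts over the 5 CD105+ libraries, Nrp2 was between 111.6 and 182 CPM in all 4 CD200+ non-immunized libraries, and Sema3c reached 222 CPM in library 5 alone.

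Slit2, on chromosome 5 at 47983138 to 48307733 (+ strand, GRCm38, ENSMUSG00000031558), encodes a secreted ligand of Robo1 and Robo2. It was at 0, 0.119, 0, 0 and 0 CPM in CD105+ arthritic libraries 10 to 14. CD200+ arthritic libraries 5 to 9 had 0.201, 38.5, 26.8, 85.7 and 59.9 CPM. CD200+ non-immunized libraries 1 to 4 had 397, 67.9, 154 and 162 CPM. Every CD105+ library was below every CD200+ library, and the CD200+ groups overlapped only because library 8 exceeded library 2. Means were 0.0239 ± 0.0534 CPM in CD105+ arthritic, 42.2 ± 32.5 CPM in CD200+ arthritic and 195 ± 141 CPM in CD200+ non-immunized libraries (SD, n = 5, 5 and 4). The CD105+ libraries held 2 Slit2 counts in all, both in library 11, against 2698 in the CD200+ arthritic and 12479 in the CD200+ non-immunized libraries. After scaling, the pooled level was 0.000615 of that in CD200+ arthritic cells (95% interval 7.44e-05 to 0.00222) and 0.000142 of that in CD200+ non-immunized cells (1.72e-05 to 0.000514). These intervals treat reads as independent molecules, which reads without molecular identifiers are not, and leave out the spread between libraries. They are therefore too narrow.

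Within the CD200+ population the log2 difference of Slit2, arthritic minus non-immunized, was -2.21 ± 0.99 (approximate SE). Leaving out any 1 library kept it between -2.64 and -1.58. Without library 5, which had 0.201 CPM of Slit2 and the osteoblast marker sum of 95.8 CPM, it was -1.89. The difference thus had the same sign without the library that was lowest. The 5 CD105+ libraries and library 5 had both the lowest osteoblast sums and the least Slit2, and the other 8 libraries had osteoblast sums of 4231 to 14605 CPM. The part of osteoblast marker content in the Slit2 levels was not tested.

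Slit3, on chromosome 11 at 35121224 to 35708507 (+ strand, ENSMUSG00000056427), encodes a second Slit ligand. CD105+ arthritic libraries 10 to 14 had 0, 6.87, 0, 1.70 and 0.515 CPM. In CD200+ arthritic libraries 5 to 9 the values were 0, 0, 7.89, 7.27 and 4.71 CPM. In CD200+ non-immunized libraries 1 to 4 they were 50.3, 2.23, 79.3 and 96.2 CPM. Slit3 was thus low in both arthritic groups, and 3 of the 4 non-immunized libraries were above every arthritic library. Means were 1.82 ± 2.91 CPM in CD105+ arthritic, 3.98 ± 3.82 CPM in CD200+ arthritic and 57.0 ± 41.2 CPM in CD200+ non-immunized libraries. The log2 difference was -3.82 ± 1.75 for CD200+ arthritic minus non-immunized cells and -1.12 ± 1.56 for CD105+ minus CD200+ arthritic cells. For CD105+ arthritic minus CD200+ non-immunized cells it was -4.95 ± 1.84. In size, the difference of Slit3 between the CD200+ groups was thus larger than that between the sorted arthritic populations, and for Slit2 the reverse held. Library 11 held 75.6% of the summed Slit3 CPM of the CD105+ group, and without it the CD105+ minus CD200+ arthritic difference was -2.77. Per kilobase of transcript, the Slit2 to Slit3 ratio was 1.78, 6.19 and 6.67 in CD200+ arthritic libraries 7 to 9 and 4.14, 16, 1.02 and 0.886 in CD200+ non-immunized libraries 1 to 4. In CD105+ library 11 it was 0.00913, from 2 counts of Slit2 and 115 of Slit3.

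Robo1, on chromosome 16 at 72308306 to 73046095 (+ strand, ENSMUSG00000022883), encodes a transmembrane receptor for Slits. CD105+ arthritic libraries 10 to 14 had 0, 2.33, 0, 0 and 0.588 CPM. The values were 54.8, 0, 13.5, 40.4 and 29.3 CPM in CD200+ arthritic libraries 5 to 9. They were 23.3, 0, 9.07 and 49.5 CPM in CD200+ non-immunized libraries 1 to 4. Apart from a library at 0 in each CD200+ group, both of them with over 80% spike-ins, every CD200+ library was above every CD105+ library. Means were 0.583 ± 1.01 CPM in CD105+ arthritic, 27.6 ± 21.6 CPM in CD200+ arthritic and 20.5 ± 21.6 CPM in CD200+ non-immunized libraries. The log2 difference was -5.50 ± 2.01 for CD105+ minus CD200+ arthritic cells and -5.07 ± 2.00 for CD105+ arthritic minus CD200+ non-immunized cells. Between the CD200+ groups it was 0.43 ± 1.76, 0.02 without library 5 and -0.01 without library 2. Robo1 was thus 1 of 2 members, with Sema3c, whose mean was higher in CD200+ arthritic than in CD200+ non-immunized libraries, by less than the SD of either group.

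Robo2, on chromosome 16 at 73891839 to 74411825 (- strand, ENSMUSG00000052516), encodes a further Slit receptor and had the lowest mean of the members in CD200+ arthritic and CD200+ non-immunized libraries, in CPM and per kilobase. CD105+ arthritic libraries had 2.66 CPM in library 10, 0.239 CPM in library 11 and 0 in the other 3. CD200+ arthritic libraries had 5.56 CPM in library 7, 0.126 CPM in library 9 and 0 in the other 3. CD200+ non-immunized libraries had 19.0 CPM in library 1, 8.63 CPM in library 3 and 0 in both others. A single library held 91.8% of the summed CPM in the CD105+ group and 97.8% in the CD200+ arthritic group, so the means, 0.580 ± 1.17, 1.14 ± 2.47 and 6.92 ± 9.04 CPM in CD105+ arthritic, CD200+ arthritic and CD200+ non-immunized libraries, each rest on 1 or 2 libraries. Robo1 and Robo2 were detected together in 5 libraries, and where both were found Robo1 had the larger count each time.

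Sema3a, on chromosome 5 at 13125414 to 13602565 (+ strand, ENSMUSG00000028883), encodes a secreted semaphorin that signals through neuropilin 1. The 5 CD105+ arthritic libraries, 10 to 14, had 0, 6.03, 2.19, 3.92 and 5.29 CPM. CD200+ arthritic libraries 5 to 9 had 0.201, 0, 23.6, 1.16 and 4.40 CPM. CD200+ non-immunized libraries 1 to 4 had 27.8, 3.35, 28.2 and 7.93 CPM. The groups overlapped, with means of 3.49 ± 2.44 CPM in CD105+ arthritic, 5.87 ± 10.1 CPM in CD200+ arthritic and 16.8 ± 13.0 CPM in CD200+ non-immunized libraries. Library 7 held 80.4% of the CD200+ arthritic total. The CD105+ minus CD200+ arthritic log2 difference was -0.75 ± 1.46 with library 7 and 1.28 without it, so its sign rests on that library. The CD200+ arthritic minus non-immunized difference was -1.51 ± 1.55, and the CD105+ arthritic minus CD200+ non-immunized difference was -2.26 ± 1.57.

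Sema3c, on chromosome 5 at 17574281 to 17730268 (+ strand, ENSMUSG00000028780), encodes a secreted semaphorin that can use either neuropilin. CD105+ arthritic libraries 10 to 14 had 7.10, 7.29, 0, 8.35 and 7.94 CPM. There were 222, 0, 1.80, 0 and 1.13 CPM in CD200+ arthritic libraries 5 to 9. There were 0, 57.1, 32.2 and 10.1 CPM in CD200+ non-immunized libraries 1 to 4. In 4 of 5 CD105+ libraries Sema3c was between 7.10 and 8.35 CPM, a narrow band above 4 of the 5 CD200+ arthritic libraries. Means were 6.14 ± 3.47 CPM in CD105+ arthritic, 44.9 ± 98.8 CPM in CD200+ arthritic and 24.9 ± 25.4 CPM in CD200+ non-immunized libraries. Library 5 held 98.7% of the CD200+ arthritic total. The CD105+ minus CD200+ arthritic log2 difference was -2.87 ± 2.11 with library 5 and 3.06 without it. The CD200+ arthritic minus non-immunized difference was 0.85 ± 2.12 with library 5 and -5.00 without it. Sema3c and Robo1 were higher in library 5 than in any other of the 14, while Slit2 and Nrp2 were lowest of their group there. Library 5 also had the highest endothelial marker sum of the 14, at 141 CPM. The part of endothelial marker content in these values was not tested. The CD105+ arthritic minus CD200+ non-immunized difference was -2.01 ± 2.12, and 0.14 with library sizes from the spike-ins.

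Nrp1, on chromosome 8 at 128358604 to 128503363 (+ strand, ENSMUSG00000025810), encodes the co-receptor of Sema3a and of VEGF-A. It was the only member whose exons share bases with another annotated gene, Mir1903. CD105+ arthritic libraries 10 to 14 had 3.33, 31.5, 25.8, 6.99 and 11.5 CPM. CD200+ arthritic libraries 5 to 9 had 69.7, 9.10, 122, 106.3 and 62.0 CPM. CD200+ non-immunized libraries 1 to 4 had 130.3, 1.49, 142.7 and 62.3 CPM. Nrp1 was detected in all 14 libraries, alone among the members. Libraries 6 and 2, which have over 80% spike-ins, lay inside or below the CD105+ range, and every other CD200+ library lay above it. Means were 15.8 ± 12.2 CPM in CD105+ arthritic, 73.8 ± 43.9 CPM in CD200+ arthritic and 84.2 ± 65.5 CPM in CD200+ non-immunized libraries. The log2 difference was -2.22 ± 0.95 for CD105+ minus CD200+ arthritic cells, and -2.57 without the 3 libraries over 80% spike-ins. For CD105+ arthritic minus CD200+ non-immunized cells it was -2.41 ± 0.98. Between the CD200+ groups it was -0.19 ± 0.96, the smallest in size among the members, with a range of -0.61 to 0.16 when any 1 library was left out.

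Nrp2, on chromosome 1 at 62703285 to 62818695 (+ strand, ENSMUSG00000025969), encodes the neuropilin known for binding Sema3f and VEGF-C. CD105+ arthritic libraries 10 to 14 had 0, 22.0, 1.53, 7.95 and 6.25 CPM. The values were 0, 55.2, 90.3, 82.3 and 31.1 CPM in CD200+ arthritic libraries 5 to 9. They were 152.5, 111.6, 182 and 137 CPM in CD200+ non-immunized libraries 1 to 4. Every CD200+ non-immunized library was above every arthritic library of either population, and 4 of 5 CD200+ arthritic libraries were above all CD105+ libraries. Means were 7.55 ± 8.73 CPM in CD105+ arthritic, 51.8 ± 37.2 CPM in CD200+ arthritic and 145.9 ± 29.6 CPM in CD200+ non-immunized libraries. The log2 difference was -1.49 ± 1.23 for CD200+ arthritic minus non-immunized cells, and -1.16 without library 5. It was -2.77 ± 1.24 for CD105+ minus CD200+ arthritic cells and -4.26 ± 1.35 for CD105+ arthritic minus CD200+ non-immunized cells. Nrp2 was the only member without overlap between the CD200+ groups, and Slit2 and Nrp2 were the 2 without overlap between CD105+ arthritic and CD200+ non-immunized libraries. No member lay wholly higher in the group named first in any of the 3 comparisons. The share of all genes tested that separate these groups without overlap is not given here, so nothing is read from the number of members that did.

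The balance of the neuropilins can be read within a library, where scaling cancels. Per kilobase of the longest coding transcript, the Nrp2 to Nrp1 ratio was 0.374, 0.0317, 0.609 and 0.29 in CD105+ arthritic libraries 11 to 14, and library 10 had 0 Nrp2 counts beside 15 of Nrp1. It was 3.25, 0.396, 0.414 and 0.268 in CD200+ arthritic libraries 6 to 9, and library 5 had 0 Nrp2 counts beside 346 of Nrp1. It was 0.626, 40.1, 0.684 and 1.18 in CD200+ non-immunized libraries 1 to 4. The 2 highest ratios, in libraries 2 and 6, rest on 8 and 30 Nrp1 counts. Apart from those, all non-immunized ratios were above those of the arthritic CD200+ and CD105+ libraries.

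Between genes, levels were compared per kilobase of the longest coding transcript. In CD105+ arthritic libraries Nrp1 was first with 4.40 ± 3.40 CPM per kilobase, then Nrp2 with 1.12 ± 1.30 and Sema3c with 1.12 ± 0.631, and Slit2 was last with 0.0024 ± 0.00536. In CD200+ arthritic libraries the order began with Nrp1 at 20.5 ± 12.2, Sema3c at 8.18 ± 18.0, Nrp2 at 7.70 ± 5.53 and Slit2 at 4.24 ± 3.26 CPM per kilobase. In CD200+ non-immunized libraries it began with Nrp1 at 23.4 ± 18.2, Nrp2 at 21.7 ± 4.41, Slit2 at 19.6 ± 14.2 and Slit3 at 10.9 ± 7.87 CPM per kilobase. Slit2 was thus the third of the 8 members in the CD200+ non-immunized group and last in the CD105+ group. In all 21 neighbouring pairs of the 3 orders, the difference was smaller than the larger SD of the pair. With the length of all annotated exons in place of the longest transcript, the order in the CD200+ non-immunized group was Nrp2, Slit3, Nrp1 and Slit2.

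Detection also differed between libraries. Of the 40 values of the 8 genes in CD105+ arthritic libraries 37.5% were 0, against 25% of 40 values in CD200+ arthritic and 12.5% of 32 values in CD200+ non-immunized libraries. Library 11, the CD105+ library with high macrophage markers, had no member at 0 and was highest of its group for 6 of the 8 genes. Library 12 had 5 members at 0 and library 10 likewise 5. Without library 11 the CD105+ minus CD200+ arthritic log2 difference was -3.70 for Nrp2, -2.63 for Nrp1 and -7.35 for Robo1. These were further below 0 than with it, at -2.77, -2.22 and -5.50. The part of macrophage marker content in these values was not tested.

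**Figure D3:**
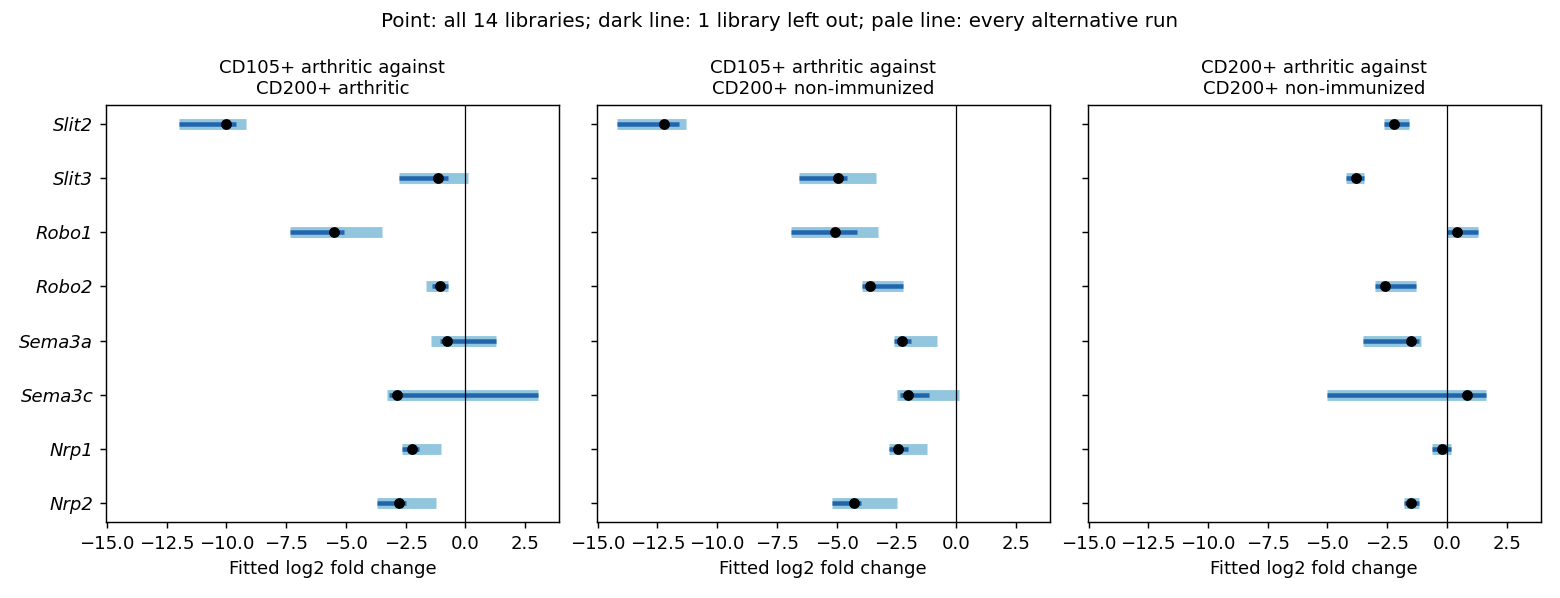
Fitted log2 difference of each gene in 3 comparisons (point, all libraries with TMM scaling; dark bar, range when any 1 library is left out; pale bar, range over all alternatives). Slit2 stayed between -11.97 and -9.18 for CD105+ minus CD200+ arthritic cells, while Sema3c ran from -3.26 to 3.06. Robo2 had no value without library 7 or library 10.

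Likeness between patterns was measured as the root mean square difference of log2(CPM + 1) over the 14 libraries, after each gene was centred on its own mean, among 9535 genes with a mean of at least 10 CPM. The genes most like Slit2 were Car3 at 0.76 and Sp7 at 0.78. Car3 averaged 0.962 CPM in CD105+ arthritic, 34.9 CPM in CD200+ arthritic and 251 CPM in CD200+ non-immunized libraries. Sp7, which encodes the osteoblast transcription factor osterix, averaged 0.153, 33.9 and 108 CPM in the same groups. Both were picked for this likeness, so their steps between groups are no further result. Those most like Nrp2 were Vldlr at 0.80 and Antxr2 at 0.84, and those most like Nrp1 were Hif1a at 0.73 and Ggcx at 0.80. Robo1 was nearest to Tubb2b at 0.60 and Itpkb at 0.85, and Slit3 to Gdf10 at 0.89 and Tle2 at 0.99. Sema3a was nearest to Ric8b at 0.81 and Ccdc88a at 0.82, and Robo2 to Cept1 at 0.97 and Mrps6 at 1.05. Cept1 averaged 43.4 CPM in CD105+ arthritic, 43.2 CPM in CD200+ arthritic and 82.6 CPM in CD200+ non-immunized libraries. Robo2 averaged 0.580, 1.14 and 6.92 CPM in the same groups. For a member near 0 in many libraries, nearness on this measure is thus no shared step between groups. Sema3c had no gene closer than Zup1 at 1.47, the largest such distance among the members. Among the members themselves the nearest pair was Robo1 and Nrp1 at 1.28 and the farthest was Slit2 and Sema3c at 4.45. These are descriptions over 14 libraries that also share group, depth and spike-in share.

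The genes that act with the members were described through 8 lists, with 102 of their genes present among the counted genes. Of these, 70 were tested by edgeR, with adjustment over all 15015 genes. The lists, like the members, were chosen with earlier results of these data known. Their p-values and shares of called genes are therefore a description, and no excess over all genes is read from them. Of the 70, 9 had 0 counts in the CD105+ libraries and could only fall in the CD105+ comparisons. With CD105+ arthritic against CD200+ arthritic cells 16 of 70 fell and 0 rose, 22.9% against 11.3% of all genes, with a median log2 difference of -2.23 against -0.05. With CD105+ arthritic against CD200+ non-immunized cells 23 of 70 fell and 0 rose, 32.9% against 13.2%, with a median of -3.80 against -0.24. Between the CD200+ groups 0 of 70 were called, by edgeR, with a median of -0.67 against -0.10. The calls of the CD105+ comparisons depend on scaling. With library sizes from the spike-ins, where the median of all genes tested was 1.23 in both, 1 of 71 fell against CD200+ arthritic cells, Plxna2 with a log2 difference of -5.92, and 0 against CD200+ non-immunized cells. They also depend on single libraries. Against CD200+ arthritic cells the count was 9 without library 10 or 14, 10 without library 13 or 8, and up to 20 otherwise. Against CD200+ non-immunized cells it was 12 without library 14 or 3, 13 without library 13 or 4, 14 without library 10 or 1, and up to 23 otherwise. Of the 16 genes, 8 were called whichever library was left out: Neo1, Enah, Plxna2, Vegfa, Rgmb, Gpc1, Epha4 and Dpysl3. Of the 23, this held for 9: Neo1, Enah, Plxna2, Vegfa, Gpc1, Rgmb, Dpysl3, Farp2 and Efna5. Among the other calls against CD200+ arthritic cells, the number of the 10 such fits that kept the call was 7 for Rgma, 6 for Plxnd1, 4 for Mical2, 3 for Sema5a and 2 each for Efna5, Ephb3, Ntn5 and Sema7a. Against CD200+ non-immunized cells, of 9 fits, it was 8 for Sema5a and Plxna3, 5 for Rgma, 4 for Plxnd1, Plxnb1, Plxnb2 and Mical2, 2 for Epha4, Vegfc and Ephb3, 1 for Epha3, Ntn5 and Sema7a, and 0 for Efna2. In these fits the edgeR adjusted p reached 0.0923 against CD200+ arthritic and 0.114 against CD200+ non-immunized cells.

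**Figure D4:**
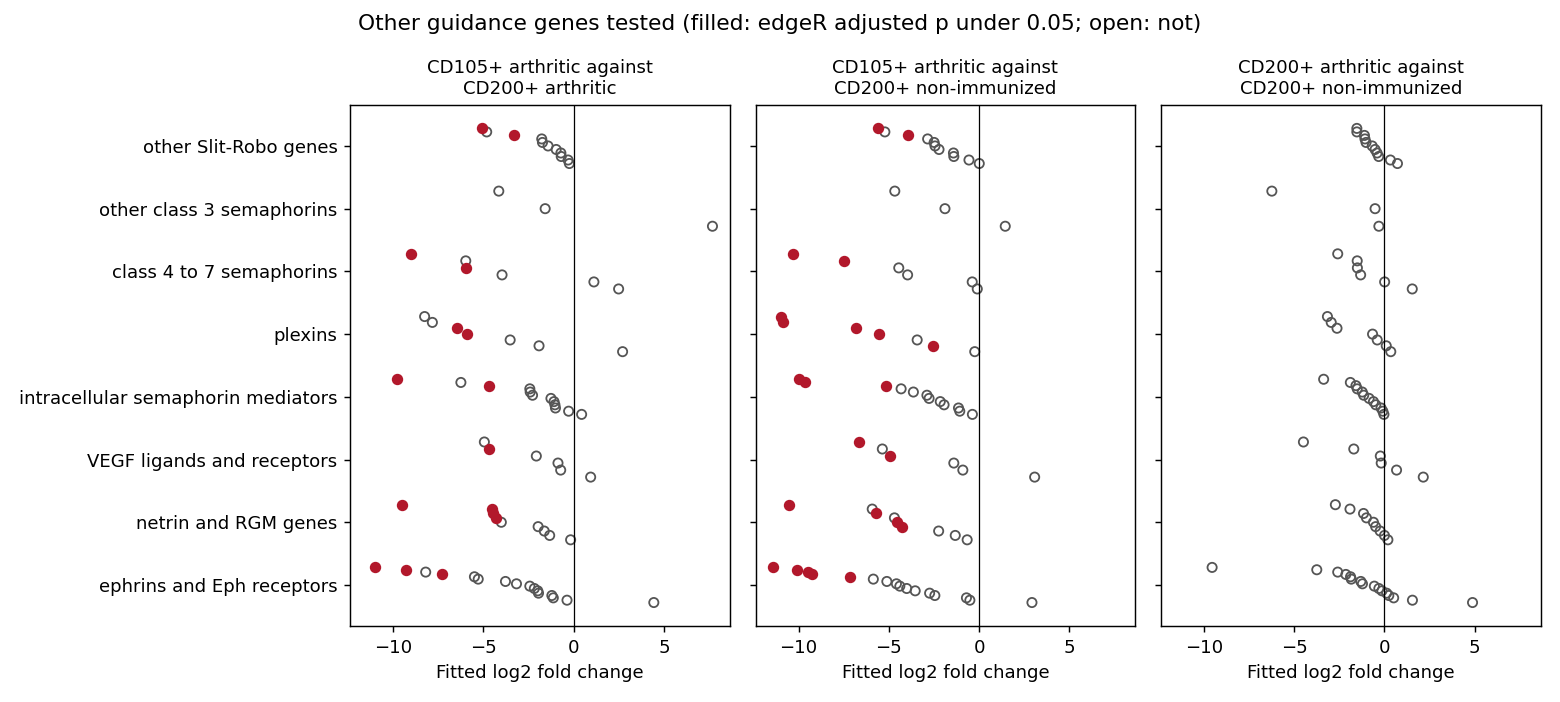
Fitted log2 difference of each tested gene in 8 lists of other guidance genes, in 3 comparisons (filled points, edgeR adjusted p under 0.05; open points, not past it). All filled points lie below 0 and all are in the CD105+ comparisons.

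Of 11 other Slit-Robo genes tested, 2 fell in both CD105+ comparisons. Gpc1 encodes glypican 1, a heparan sulfate proteoglycan that binds Slits. It averaged 4.62 ± 5.68 CPM in CD105+ arthritic and 158 ± 110 CPM in CD200+ arthritic libraries (log2 difference -5.09 ± 1.21, edgeR adjusted p = 0.0168). The mean was 227 ± 80.6 CPM in CD200+ non-immunized libraries (edgeR adjusted p = 0.0113). Enah, an actin regulator of the Ena/VASP family downstream of Robo, averaged 11.3 ± 6.91 CPM in CD105+ arthritic and 109.5 ± 29.7 CPM in CD200+ arthritic libraries (-3.28 ± 0.63, edgeR adjusted p = 0.00612). It averaged 175 ± 126 CPM in CD200+ non-immunized libraries (edgeR adjusted p = 0.00244). For both genes every CD105+ library was below every CD200+ library. Of the Slit-Robo GTPase activating proteins, Srgap1, Srgap2 and Srgap3 did not pass, with log2 differences of -0.97 ± 1.52, -1.42 ± 0.85 and -0.31 ± 1.87 for CD105+ minus CD200+ arthritic cells. The other tested genes, Abl1, Evl, Nck1, Nck2, Sos1 and Vasp, did not pass either, with differences of -4.82 for Evl to -0.24 for Vasp. Slit1 and Robo3 had 0 counts in all 14 libraries, which allows at most 0.17 to 0.91 CPM depending on the library, and Robo4 was found only in libraries 11 and 1, at 2.57 and 2.43 CPM.

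Plexins are semaphorin receptors, and some of them act in complex with a neuropilin. In CD105+ arthritic against CD200+ arthritic cells 2 of 7 tested plexins were called, and 5 of 7 against CD200+ non-immunized cells, all lower. Plxna2 averaged 0.970 ± 0.953 CPM in CD105+ arthritic, 84.7 ± 61.0 CPM in CD200+ arthritic and 112 ± 122 CPM in CD200+ non-immunized libraries (edgeR adjusted p = 0.00824 and 0.00614). Plxnd1, a plexin of vessels, averaged 0.572 ± 0.794 CPM in CD105+ arthritic, 36.1 ± 31.5 CPM in CD200+ arthritic and 28.3 ± 14.2 CPM in CD200+ non-immunized libraries (edgeR adjusted p = 0.0278 and 0.0328). Plxna3 and Plxnb1 had 0 counts over the 5 CD105+ libraries. Folds for genes at 0, here and below, divide the CD200+ group mean by a floor of 3 counts, without its spread between libraries. Against CD200+ non-immunized cells Plxna3 was at least 436-fold lower and Plxnb1 at least 408-fold lower, from a floor of 3 counts over the CD105+ group (edgeR adjusted p = 0.0242 and 0.029). Against CD200+ arthritic cells, where they averaged 2.30 and 3.11 CPM, neither passed (edgeR adjusted p = 0.0575 and 0.0583). Plxnb2 averaged 12.2 ± 11.1 CPM in CD105+ arthritic and 73.5 ± 47.2 CPM in CD200+ non-immunized libraries (edgeR adjusted p = 0.0323). Plxna1 and Plxnc1 did not pass, and Plxna4 and Plxnb3 were too low to test.

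Of the other class 3 semaphorins, 3 of 5 could be tested and 0 were called by edgeR in any comparison. Sema3d averaged 0.937 ± 1.2 CPM in CD105+ arthritic, 16.9 ± 21.8 CPM in CD200+ arthritic and 24.4 ± 28.8 CPM in CD200+ non-immunized libraries (edgeR adjusted p = 0.145 and 0.107). Sema3b averaged 2.89 ± 2.74 CPM in CD105+ arthritic, 8.65 ± 13.1 CPM in CD200+ arthritic and 10.7 ± 8.99 CPM in CD200+ non-immunized libraries. Sema3f, a ligand of Nrp2, averaged 2.09 ± 2.47 CPM in CD105+ arthritic libraries, was at 0 counts in CD200+ arthritic libraries and averaged 0.756 ± 1.51 CPM in CD200+ non-immunized libraries. Sema3e and Sema3g were too low to test. Among 6 tested semaphorins of classes 4 to 7, Sema5a and Sema7a fell in both CD105+ comparisons. Sema5a averaged 0.514 ± 1.15 CPM in CD105+ arthritic, 34.4 ± 24.9 CPM in CD200+ arthritic and 97.5 ± 88.0 CPM in CD200+ non-immunized libraries (edgeR adjusted p = 0.0451 and 0.0215). Sema7a, a membrane-anchored semaphorin, had 0 counts in CD105+ libraries and was at least 109-fold lower than in CD200+ arthritic and at least 273-fold lower than in CD200+ non-immunized cells (edgeR adjusted p = 0.0493 and 0.0339, past the threshold in 2 of 10 and 1 of 9 fits that leave out 1 library).

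Among 6 tested VEGF ligands and receptors, the partners that neuropilins share with semaphorins, Vegfa fell in both CD105+ comparisons. Vegfa averaged 1.83 ± 2.07 CPM in CD105+ arthritic, 48.5 ± 24.8 CPM in CD200+ arthritic and 56.8 ± 50.2 CPM in CD200+ non-immunized libraries (edgeR adjusted p = 0.0108 and 0.00832). Vegfc, a ligand of Nrp2, averaged 0.991 ± 2.22 CPM in CD105+ arthritic, 31.98 ± 20.3 CPM in CD200+ arthritic and 104 ± 54.3 CPM in CD200+ non-immunized libraries and passed only against CD200+ non-immunized cells (edgeR adjusted p = 0.0849 and 0.0361). Vegfb did not pass and had the opposite sign, with 49.3 ± 16.2 CPM in CD105+ arthritic, 25.7 ± 24.6 CPM in CD200+ arthritic and 5.79 ± 5.28 CPM in CD200+ non-immunized libraries. The genes called were ligands, but the receptors were low in all groups, which left little room for a call. Means were 0.730 to 3.16 CPM for Kdr, 0.0752 to 0.764 CPM for Flt1 and at most 0.441 CPM for Flt4. No contrast of ligands with receptors is therefore read from the calls. The ligand Pgf was not called, with 0.670 CPM in CD105+ arthritic, 1.23 CPM in CD200+ arthritic and 28.5 CPM in CD200+ non-immunized libraries.

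Of 9 tested netrin and RGM genes, 4 fell in both CD105+ comparisons. Neo1 encodes neogenin, a receptor for netrins and repulsive guidance molecules, and averaged 2.12 ± 1.94 CPM in CD105+ arthritic, 50 ± 23.4 CPM in CD200+ arthritic and 112 ± 41.4 CPM in CD200+ non-immunized libraries. Its log2 difference was -4.55 ± 0.76 for CD105+ minus CD200+ arthritic cells (edgeR adjusted p = 0.00236) and -5.71 ± 0.81 for CD105+ arthritic minus CD200+ non-immunized cells (edgeR adjusted p = 0.000786). Of the RGM ligands of neogenin, Rgmb fell with edgeR adjusted p = 0.0153 and 0.0119 and Rgma fell with edgeR adjusted p = 0.025 and 0.0286. Ntn5 had 0 counts in CD105+ libraries and was at least 159-fold lower than in CD200+ arthritic and at least 320-fold lower than in CD200+ non-immunized cells. These calls held in 2 of 10 and 1 of 9 fits that leave out 1 library. Ntn5 averaged 7.57 ± 15.0 CPM, with a median of 0.376 CPM, in CD200+ arthritic libraries. In CD200+ non-immunized libraries it averaged 15.2 ± 12.9 CPM. The other 5 tested genes, among them the netrins Ntn1 and Ntn4, which were named after their values were seen, did not pass. Ntn1 averaged 14.4 CPM in CD105+ arthritic, 16.2 CPM in CD200+ arthritic and 22.8 CPM in CD200+ non-immunized libraries, and Ntn4 averaged 23.9, 59.98 and 59.9 CPM in CD105+ arthritic, CD200+ arthritic and CD200+ non-immunized libraries.

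Of 12 tested intracellular mediators of semaphorin signals, 2 fell against CD200+ arthritic and 3 against CD200+ non-immunized cells. Dpysl3, a collapsin response mediator protein, averaged 5.75 ± 5.62 CPM in CD105+ arthritic, 148 ± 86.3 CPM in CD200+ arthritic and 207 ± 78.0 CPM in CD200+ non-immunized libraries (edgeR adjusted p = 0.0201 and 0.0136). Mical2, an actin-oxidizing enzyme, had 0 counts in CD105+ libraries and was at least 189-fold and 217-fold lower (edgeR adjusted p = 0.0305 and 0.0271). Farp2 had 2 counts in CD105+ libraries and averaged 30.2 ± 48.1 CPM in CD200+ non-immunized libraries (edgeR adjusted p = 0.0131). Of 16 tested ephrins and Eph receptors, 3 fell against CD200+ arthritic and 5 against CD200+ non-immunized cells. The receptor Epha4 and the ligand Efna5 had 0 counts in CD105+ libraries, and they were at least 449-fold and 134-fold lower than in CD200+ arthritic cells (edgeR adjusted p = 0.0235 and 0.035). The Efna5 call held in 2 of 10 fits that leave out 1 library. Against CD200+ non-immunized cells Efna5 was at least 593-fold lower, Epha3 at least 232-fold, Epha4 at least 152-fold and Efna2 at least 131-fold (edgeR adjusted p = 0.0189, 0.0332, 0.0325 and 0.0375). With 1 library left out these held in 9, 1, 2 and 0 of 9 fits. In the same order, these genes averaged 28.2 ± 27.7, 11.1 ± 11.8, 7.27 ± 8.85 and 6.24 ± 6.66 CPM in CD200+ non-immunized libraries. Epha4 had counts in 2 of those 4 libraries. Ephb3 had 5 counts in the CD105+ libraries, all in 1 library, and averaged 11.9 ± 6.82 CPM in CD200+ arthritic libraries (edgeR adjusted p = 0.0427).

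The groups compared for the lists also differed in other marker sums. Skeletal muscle markers summed to 0.444 to 14.1 CPM in CD105+ arthritic, 379 to 995 CPM in CD200+ arthritic and 155 to 985 CPM in CD200+ non-immunized libraries, with Ckm, Myh1, Myh4 and Pax7 at 0 in the CD105+ group. Mural markers summed to 3.77 to 282 CPM in CD105+ arthritic, 502 to 1540 CPM in CD200+ arthritic and 313 to 1083 CPM in CD200+ non-immunized libraries. Endothelial markers, whose cells are known for Nrp1 and Robo4, summed to 36.4 to 51.6 CPM in CD105+ arthritic libraries. They summed to 0.136 to 141 CPM in CD200+ arthritic libraries, with the highest sum in library 5, and to 0.186 to 49.1 CPM in CD200+ non-immunized libraries. The CD105+ sums came mostly from Egfl7 and Vwf, which averaged 22.3 and 15.3 CPM there. Of 7 tested endothelial markers, 4 had a negative and 3 a positive log2 difference for CD105+ minus CD200+ arthritic cells. Against CD200+ non-immunized cells 5 were negative and 2 positive. The part of erythroid, osteoblast, skeletal muscle and mural marker content in the list results was not tested.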

How the data were processed

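RNA was measured by SMART-Seq v4 and Nextera XT sequencing on a NextSeq 500, per the labels. For the upstream steps, StringTie, HISAT2, cutadapt and edgeR are named with no versions in the submitters' processing notes, beside the builds mm10 and GRCm38. No source used here gives the strand setting, so a gene and its antisense partner cannot be told apart. The deposited table used holds raw gene counts, as its whole-number values show. A second deposited table, of filtered genes, was not used here.

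Spike-in rows (92) were left out of library sizes. CPM are counts scaled by TMM factors. edgeR 4.0.16 in R 4.3.3 (filterByExpr minimum count 10, 15015 genes kept, robust quasi-likelihood fit, 3 groups, 14 libraries) gave two-sided p-values with Benjamini-Hochberg adjustment over all genes tested and a threshold of 0.05. The common biological coefficient of variation was 1.28. The SE of a log2 difference is the difference divided by the square root of F. Floors are 3 counts over a group, and Poisson ratios have 95% intervals. Gene positions are from GENCODE M21.

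The members and all gene lists were chosen with earlier results of these data known. All members are named, along with the up to 4 genes of each list with the smallest adjusted p past the threshold, all plexins, class 3 semaphorins and Slit-Robo genes, the sort markers, and for each member the 2 genes most alike. A few single genes picked this way are not reported here. Alternatives were DESeq2 1.42.0, RLE factors, spike-in library sizes, no filter, leaving out the 3 libraries over 80% spike-ins, and leaving out each library.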

Additional observations from a re-analysis of the deposited data

Results flagged for a closer look

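In 8 of 24 sets of values, each the libraries of 1 group for 1 member, the highest or the lowest library lay farther from the nearest other than Dixon's criterion allows. Values were compared as log2(CPM + 1). Chance flags about 1 in 20 sets of continuous values, and that rate does not hold for sets with several libraries at 0, such as Slit2 and Robo2 in CD105+ and Robo2 in CD200+ arthritic libraries, where 1 library with counts is flagged almost by construction. In CD105+ arthritic libraries these were Slit2 in library 11 (0.119 CPM, the highest), Robo2 in library 10 (2.66 CPM, the highest) and Sema3c in library 12 (0 CPM, the lowest). In CD200+ arthritic libraries, library 5 was apart for 3 genes, with Slit2 lowest at 0.201 CPM, Nrp2 lowest at 0 CPM and Sema3c highest at 222 CPM. Robo2 in library 7 (5.56 CPM, the highest) and Nrp1 in library 6 (9.10 CPM, the lowest) were the others. None was in the CD200+ non-immunized libraries.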

How the results depend on the processing

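The fitted signs of Slit2 and Nrp2 were the same in all 3 comparisons under every alternative. Those of Robo2 were the same where a value was given, but the fits without library 7 or library 10 gave none. These libraries held 97.8% and 91.8% of the summed Robo2 CPM in CD200+ arthritic and CD105+ arthritic libraries. The sign of Robo2 without them is therefore not known. Signs turned for Sema3c in all 3 comparisons, for Sema3a and Slit3 in CD105+ against CD200+ arthritic cells, and for Robo1 and Nrp1 between the CD200+ groups. With spike-in library sizes the CD105+ minus CD200+ arthritic values were 0.12 for Slit3, 0.28 for Sema3a and 0.75 for Sema3c.

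Over all genes, CD105+ arthritic against CD200+ arthritic cells gave 1692 calls (719 higher, 973 lower), 3565 with DESeq2, 570 with spike-in library sizes (412 higher, 158 lower) and 1090 to 1713 without 1 library. CD105+ arthritic against CD200+ non-immunized cells gave 1982 (836 higher, 1146 lower), 4072 with DESeq2, 272 with spike-in sizes (163 higher, 109 lower), 2099 with RLE factors (669 higher, 1430 lower) and 1308 to 1762 without 1 library. CD200+ arthritic against non-immunized cells gave 0, 303 with DESeq2 and 0 to 2 without 1 library, the 2 being without library 3. In the 8 lists DESeq2 called 28 and 36 genes lower in the CD105+ comparisons, against 16 and 23, and 10 and 14 were called with no filter. The cause of these shifts was not tested. No paired analysis was possible because the labels do not say whether the arthritic populations came from the same mice. Depth limits the low members: in library 6, 3 counts equal 0.91 CPM.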
